A study of Mus musculus with 12 samples.

Results

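Histone chaperones are proteins that carry histones and hand them to DNA, so that nucleosomes can be built, opened and rebuilt. The transcripts of 10 of them, chosen by gene symbol, were followed through early cleavage in mouse embryos injected with an antisense oligonucleotide (ASO): Chaf1a and Chaf1b of chromatin assembly factor 1 (CAF-1), Asf1a, Asf1b, Hira, Daxx, Atrx, Npm2, Nap1l1 and Supt16h. All 10 had a row among the 23284 genes of the count tables of both stages, and all 10 passed the filter on low counts in every comparison. Zygotes from C57BL/6J parents were microinjected with the LINE1 ASO or with the ASO that the labels call RC, at 0.75 mM, and cultured in KSOM medium, so the controls were injected and cultured too. Embryos were collected at early 2C (33 h after human chorionic gonadotropin, 9 h after injection, both approximate) or at 4C (after 2 days of culture), with 3 libraries in each of the 4 groups, 12 in all. The sources used here do not say what RC stands for, how many embryos a library held or whether replicates were separate collections. The p-values therefore cover library-to-library spread, possibly technical in origin. LINE1 RNA was not analysed here, so the knockdown itself was not checked.

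CAF-1 places newly made histones H3 and H4 behind the replication fork. Its large subunit is the product of Chaf1a and its middle subunit that of Chaf1b, and the third, Rbbp4, is shared with other complexes. ASF1 (Asf1a and Asf1b) escorts H3-H4 dimers to CAF-1 or to the HIRA complex, which deposits the variant H3.3 outside replication and is needed in the male pronucleus of the zygote. DAXX with the remodeller ATRX deposits H3.3 at repeats and telomeres. Npm2 is an oocyte nucleoplasmin needed for nucleolus-like bodies in the oocyte and embryo, Nap1l1 is a chaperone of H2A-H2B, and Supt16h (Supt16 in current annotation) is the large subunit of FACT, which opens nucleosomes for polymerases. In mouse embryonic stem cells, loss of CAF-1 is known to raise the share of cells that resemble the 2-cell embryo.

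Libraries held 19160716 to 51854939 counts, and the 10 transcripts had between 202 counts (Chaf1b, early 2C RC) and 47965 (Atrx, early 2C LINE1 ASO). Levels are given as CPM (counts scaled to a common library total) on 1 scale for all 12 libraries, with TMM factors (trimmed mean of M-values), and are relative to the other RNAs of the library. In bulk embryos fewer cells of a kind and less RNA per cell cannot be told apart. Summed oocyte markers (7 of 7 detected in every group) stood at 3569 to 4124 CPM at early 2C and at 196 to 392 CPM at 4C, without overlap. The 5 early 2C transcripts in the tables summed to 47.8 to 64.1 CPM at early 2C and 47.6 to 168 CPM at 4C. In 4C RC this sum came mainly from Tdpoz4 (37.6 to 65.7 CPM, against 0 to 0.648 CPM in early 2C RC) and Zfp352. In RC embryos Dux (27.1 to 35.6 against 0.0941 to 0.792 CPM), Zscan4c and Zscan4d were higher at early 2C without overlap. Zfp352 overlapped (13.6 to 19.1 CPM in early 2C RC, 5.96 to 28.9 CPM in 4C RC). The 7 genes of the blood list summed to no more than 1.52 CPM in any library, with Lyz2 at up to 1.44 CPM. The haemoglobin genes of that list had no count in any library. The 7 sperm markers summed to 418 to 502 CPM at early 2C and 57.5 to 132 CPM at 4C, nearly all of it from Odf2, with Prm2 at no more than 4.69 CPM, Prm1 at no more than 1.01 CPM and Tnp2 at 0 in all 4 groups. The 10 cumulus cell markers summed to 2.31 to 4.48 CPM at early 2C and 31.2 to 42.4 CPM at 4C, where Amhr2 alone gave 28.4 to 40.7 CPM. None of the other 9, such as Has2, Cyp11a1 or Star, passed 1.96 CPM at 4C, with Fshr at 0 in both 4C groups and Inha at 0 in all 4 groups. What part of any result below such cells have was not tested. Of the 4C LINE1 ASO libraries, replicate 3 stood apart in 2 respects. The chi-square per degree of freedom was 78.2 and 78.6 against its 2 fellow replicates and 32.7 between those. It also held 1.27 CPM of Dux, the activator of 2-cell genes, where replicates 1 and 2 held 43.0 and 45.8 CPM. Values at 4C are therefore given with and without it where that matters. The Pearson r of log2 CPM set it less apart. That r was 0.938 and 0.945 with its fellows and 0.955 between those, beside 0.936 to 0.949 among 4C RC libraries.

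The promoters of Chaf1a and Chaf1b and of the ASF1 pair are shown. The reason is that the former transcripts moved in opposite directions between the stages and the latter in the same direction. Each line gives the 250 bases before the start of transcription from RefSeq (GRCm38.p6, a different build from the mm9 named in the submitters' processing notes), 5′ to 3′ on the gene's strand, with the letters CCAAT or ATTGG (the CCAAT box on either strand) in capitals.
Chaf1a, chr17:56040166-56040415, plus strand: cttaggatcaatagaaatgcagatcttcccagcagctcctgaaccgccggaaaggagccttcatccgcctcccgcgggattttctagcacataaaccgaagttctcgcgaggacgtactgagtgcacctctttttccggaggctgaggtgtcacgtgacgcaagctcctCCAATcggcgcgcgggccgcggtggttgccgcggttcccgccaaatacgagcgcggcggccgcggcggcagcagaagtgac
Chaf1b, chr16:93883651-93883900, plus strand: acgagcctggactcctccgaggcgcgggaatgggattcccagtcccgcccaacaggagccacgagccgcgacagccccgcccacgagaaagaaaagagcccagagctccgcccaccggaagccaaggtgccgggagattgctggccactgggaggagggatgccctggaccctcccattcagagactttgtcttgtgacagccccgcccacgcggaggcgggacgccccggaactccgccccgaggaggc
Asf1a, chr10:53596711-53596960, plus strand: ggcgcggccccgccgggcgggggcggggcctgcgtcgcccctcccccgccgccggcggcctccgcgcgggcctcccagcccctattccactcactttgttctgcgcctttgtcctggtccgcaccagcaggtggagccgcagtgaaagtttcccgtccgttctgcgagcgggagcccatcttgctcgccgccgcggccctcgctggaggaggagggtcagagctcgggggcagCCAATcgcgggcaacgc
Asf1b, chr8:83955444-83955693, plus strand: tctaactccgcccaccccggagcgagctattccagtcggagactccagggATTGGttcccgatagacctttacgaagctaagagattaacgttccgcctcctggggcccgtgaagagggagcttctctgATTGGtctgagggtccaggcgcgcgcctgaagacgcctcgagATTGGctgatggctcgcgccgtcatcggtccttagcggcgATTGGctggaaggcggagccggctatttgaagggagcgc
CCAAT was found at 4 places before Asf1b, at 1 before Chaf1a and at 1 before Asf1a, and at none before Chaf1b; 33.8% of the 32851 promoter windows of the table hold it. Before Chaf1b there were 5 matches to the GC box GGGCGG or its complement CCGCCC, against 2 before Asf1a, 1 before Asf1b and none before Chaf1a, with 32.7% of all windows holding one. The E2F letters TTTCCCGC, TTTCGCGC, TTTGCCGC and TTTGGCGC, on either strand, were in none of the windows of the 9 genes that had an entry (all but Npm2) and in 1.86% of all windows. The letters TTTGAA (the CHR element), on either strand, were found before Asf1b, 14 bases before the start, and in 16% of all windows. These matches describe the letters only, and the motifs were picked with the expression values known. Other forms of these motifs, the E2F site included, were not searched, so a window without a match may still hold one.

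The comparison of 4C with early 2C asked how the supply of these transcripts changed over a stretch of development in which maternal RNA is cleared and the embryo's own genome is transcribed. In RC embryos Hira, Nap1l1 and Chaf1b rose, and Npm2, Asf1a, Asf1b, Chaf1a and Atrx fell. That is 8 of 10 called, where 72.7% of the 15760 genes tested were called (adjusted p under 0.05 in the quasi-likelihood test of edgeR, with the Benjamini-Hochberg method). The median log2 change of the 10 was -0.47, against 0.09 over all genes tested, and their median absolute change was 1.70 against 2.14. The 3 increases stand beside 36.1% of all genes called higher and the 5 decreases beside 36.6% called lower. The stages did not overlap for 8 of the 10, beside 76% of all genes, so neither share sets the 10 apart from other genes.

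**Figure D1:**
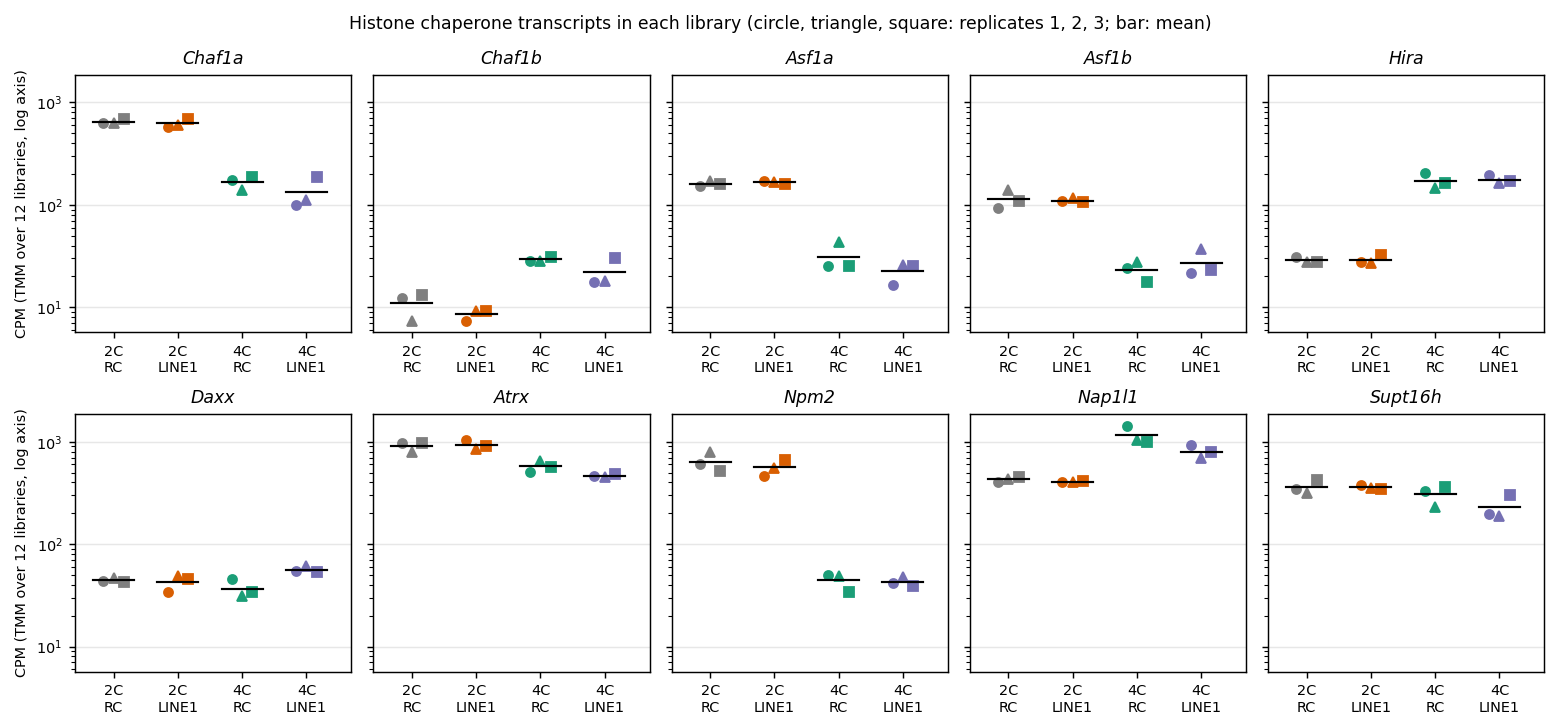
CPM of each of the 10 transcripts in each library (log axis, TMM over 12 libraries), by group, with 1 symbol per replicate number and the group mean as a bar. Chaf1a lies above 570 CPM in all 6 early 2C libraries and below 190 CPM in all 6 at 4C, while Chaf1b and Hira lie higher at 4C than at early 2C in every library.

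The CAF-1 subunits went separate ways. Chaf1a stood at 636, 626 and 688 CPM in early 2C RC replicates 1 to 3 and at 173, 138 and 188 CPM in 4C RC. It fell by 1.97 on the log2 scale (SE 0.207; adjusted p = 3.85e-07, edgeR), and no 4C library reached an early 2C library. Chaf1b, the much scarcer RNA, stood at 12.3, 7.40 and 13.2 CPM in early 2C RC and at 28.5, 28.0 and 31.3 CPM in 4C RC. It rose by 1.42 on the log2 scale (SE 0.288; adjusted p = 0.000374, edgeR), again without overlap. In the LINE1 ASO arm, which is made of other libraries, Chaf1a fell by 2.22 (SE 0.209) and Chaf1b rose by 1.36 (SE 0.288; adjusted p = 1.16e-07 and 0.000564, edgeR). Rbbp4, the CAF-1 subunit shared with other complexes, was not among the genes chosen. It rose from 66.3 to 136 CPM in RC (log2 1.03, SE 0.148, adjusted p = 1.18e-05, edgeR). With the LINE1 ASO it rose by 0.61 (SE 0.147, adjusted p = 0.00152, edgeR), without overlap in either arm.

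Because a ratio inside a library needs no scaling, Chaf1a and Chaf1b were also set against each other. Chaf1b made up 1.89%, 1.17% and 1.89% of the Chaf1a plus Chaf1b counts in early 2C RC replicates 1 to 3. It made up 1.28%, 1.51% and 1.31% in early 2C LINE1 ASO. At 4C the share was 14.1%, 16.8% and 14.3% in RC embryos, and 15.1%, 14.0% and 13.8% in LINE1 ASO embryos. Every 4C library was above every early 2C library, a difference of 3.52 in the log2 ratio over 6 against 6 libraries (exact permutation test, two-sided, p = 0.00216, the smallest this design can give; 0.013 adjusted over 6 such tests). Per kb of exon, on the TMM scale, Chaf1a was at 117 ± 6.00 CPM per kb and Chaf1b at 5.61 ± 1.60 CPM per kb in early 2C RC (SD, n = 3), and at 30.1 ± 4.60 and 15.0 ± 0.908 CPM per kb in 4C RC. Chaf1b was thus the lower of the pair at both stages, with a narrower gap at 4C.

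**Figure D2:**
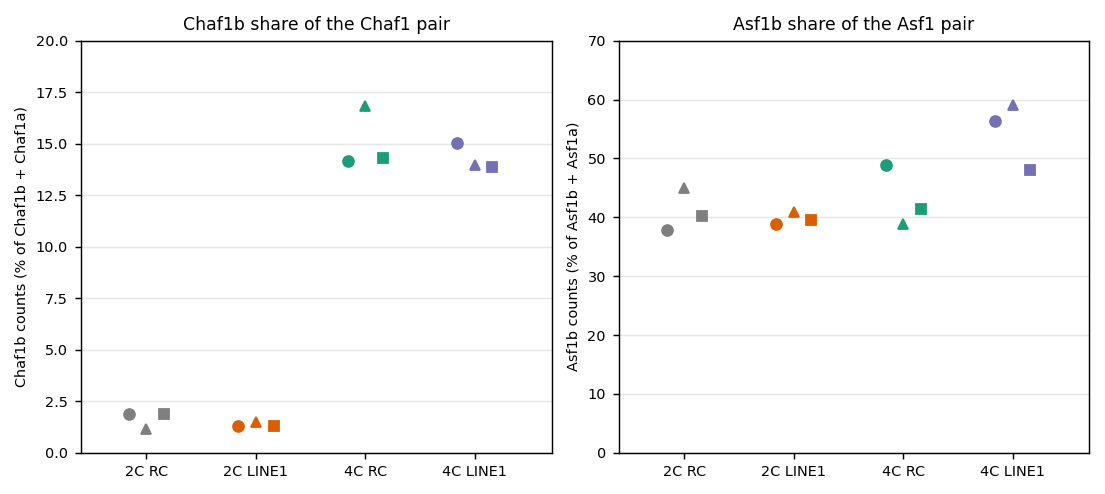
Counts of Chaf1b as a percent of Chaf1a plus Chaf1b (left) and of Asf1b as a percent of Asf1a plus Asf1b (right) in each library, by group, with 1 symbol per replicate number. The Chaf1b share is under 2% in all early 2C libraries and 13.8% to 16.8% at 4C, and the Asf1b share is 37.8% to 45.0% at early 2C and 38.8% to 59.0% at 4C.

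The ASF1 pair fell together. Asf1a stood at 152, 170.2 and 161 CPM in early 2C RC and at 25.3, 43.2 and 25.0 CPM in 4C RC, and fell by 2.37 on the log2 scale (SE 0.222; adjusted p = 1.03e-07, edgeR). Asf1b stood at 92.3, 139 and 108 CPM in early 2C RC and at 24.2, 27.4 and 17.7 CPM in 4C RC, and fell by 2.29 (SE 0.238; adjusted p = 3.24e-07, edgeR). The stages did not overlap for either gene. With the LINE1 ASO the log2 change between stages was -2.88 for Asf1a (SE 0.227) and -2.01 for Asf1b (SE 0.235), both called. Asf1b made up 37.8%, 45.0% and 40.2% of the pair's counts in early 2C RC, and 38.9%, 40.9% and 39.5% with the LINE1 ASO at that stage. At 4C its share was 48.9%, 38.8% and 41.4% in RC and 56.4%, 59.0% and 48.0% with the LINE1 ASO, and the stages overlapped. Pooled over both arms, the stages differed by 0.49 in the log2 ratio (exact permutation test, two-sided, p = 0.0303). Adjusted over 6 such permutation tests, p was 0.0909 and did not pass. The mean log2 ratio was -0.53 at early 2C and -0.41 at 4C in RC. With the LINE1 ASO it was -0.60 at early 2C and 0.26 at 4C, so the pooled value does not describe RC embryos alone. Of the exon bases of Asf1a, 58.9% overlap Mcm9 on the opposite strand in GENCODE M21 (GRCm38), and whether counting used strand is not stated. Mcm9 itself stood at 79.8 ± 5.02 CPM in early 2C RC and 23.1 ± 5.44 CPM in 4C RC (SD, n = 3). Where the neighbours overlap, their reads cannot be told apart.

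Among the H3.3 chaperones, Hira rose, Atrx fell and Daxx did not pass. Hira stood at 31.1, 27.7 and 27.5 CPM in early 2C RC and at 207, 146 and 163 CPM in 4C RC, a log2 change of 2.58 (SE 0.168; adjusted p = 1.41e-09, edgeR), and it rose by 2.61 (SE 0.168) in LINE1 ASO embryos. It was the largest increase of the 10 in both arms. Of the Hira exon bases, 58.7% are shared with Gm28539, a gene model on the same strand that was not analysed here, so its level is uncertain. Atrx stood at 976, 789 and 976 CPM in early 2C RC and at 511, 647 and 568 CPM in 4C RC. It fell by 0.67 on the log2 scale in RC (SE 0.135; adjusted p = 0.000369, edgeR) and by 1.0 in LINE1 ASO embryos (SE 0.136; adjusted p = 7.19e-06, edgeR), without overlap in either arm. Daxx stood at 43.6, 46.9 and 43.0 CPM in early 2C RC and at 45.4, 31.1 and 33.9 CPM in 4C RC, a log2 change of -0.27 with a 95% interval of -0.68 to 0.14 (adjusted p = 0.214, edgeR). With the LINE1 ASO the same change was 0.41 (interval -0.0041 to 0.82; adjusted p = 0.0703, edgeR), where scaling by library totals gave 0.74 (adjusted p = 0.00298, edgeR) and a stricter count filter 0.45 (adjusted p = 0.0400, edgeR).

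Npm2, the oocyte nucleoplasmin, had the largest change of the 10. It stood at 604, 793 and 522 CPM in early 2C RC and at 49.6, 49.2 and 33.9 CPM in 4C RC, and fell by 3.85 on the log2 scale (SE 0.213; adjusted p = 2.36e-10, edgeR). Even so, 11.1% of all genes tested had a lower log2 change. With the LINE1 ASO it fell by 3.71 (SE 0.211). Nap1l1 went the other way, from 406, 434 and 452 CPM in early 2C RC to 1439, 1041 and 1002 CPM in 4C RC, a log2 change of 1.43 (SE 0.153; adjusted p = 4.66e-07, edgeR). Among LINE1 ASO libraries it rose by 0.98 (SE 0.151; adjusted p = 2.7e-05, edgeR). Supt16h stood at 342, 315 and 422 CPM in early 2C RC and at 331, 229.8 and 365 CPM in 4C RC, with overlapping stages and a log2 change of -0.22 (interval -0.64 to 0.21; adjusted p = 0.333, edgeR). In the other arm it fell by 0.64 (SE 0.200; adjusted p = 0.00951, edgeR), a call that ended when libraries were scaled by their totals (log2 change -0.31; adjusted p = 0.138, edgeR).

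**Figure D3:**
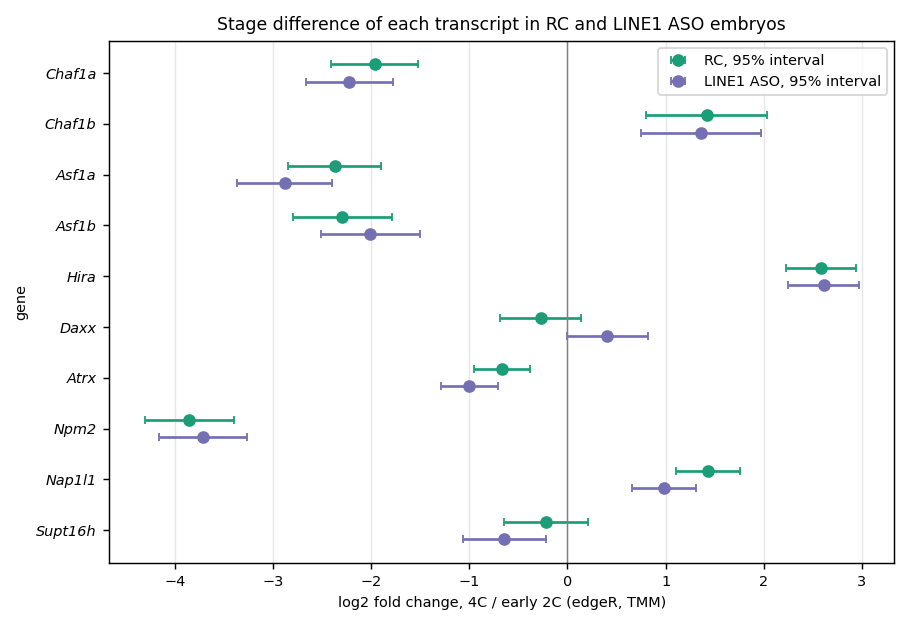
Log2 fold change of 4C over early 2C for each transcript with its 95% interval (edgeR, TMM), in RC and in LINE1 ASO embryos. Hira, Nap1l1 and Chaf1b lie above 0 and Npm2, Asf1a, Asf1b, Chaf1a and Atrx below 0 in both arms, while the Daxx intervals cross 0.

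In LINE1 ASO embryos 9 of the 10 were called, where 71.8% of all genes were. Of the 9, 3 were higher (37.6% of all genes) and 6 lower (34.2%), and the stages did not overlap for all 10, beside 78.8% of all genes. The 8 genes called in RC were called in LINE1 ASO embryos with the same sign, and all 8 kept both calls in each of the 14 alternative fits per arm, those without 1 library included. Scaling by library totals in place of TMM shifted the all-gene median by 0.19 (log2) in RC and by 0.33 in LINE1 ASO embryos, and turned no sign of the 10 in either arm.

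Ordered by level per kb of exon (a mean over 3 libraries), early 2C RC ran from Npm2 at 641 CPM per kb through Chaf1a (117), Nap1l1 (95.3), Supt16h (77.0), Atrx (71.8), Asf1b (63.3), Asf1a (61.2), Daxx (15.7) and Hira (6.08) to Chaf1b (5.61). Neighbours from Nap1l1 to Asf1a, and Hira and Chaf1b, had overlapping ranges. In 4C RC the order was Nap1l1 at 257 CPM per kb, Supt16h (66.1), Atrx (45.2), Npm2 (44.4), Hira (36.3), Chaf1a (30.1), Chaf1b (15.0), Daxx (13.0), Asf1b (12.9) and Asf1a (11.8). Ranges did not overlap between Nap1l1 and Supt16h or between Chaf1a and Chaf1b, and overlapped for the other neighbours. Hira thus moved from rank 9 to rank 5 in level and Npm2 from rank 1 to rank 4. Exon overlaps also touch Chaf1a (33.6% with Ubxn6, opposite strand) and Supt16h (19.8% with Rpgrip1, opposite strand). Both partners were higher at 4C than at early 2C in RC (Ubxn6 31.8 against 17.5 CPM, Rpgrip1 24.1 against 4.63 CPM) and low beside Chaf1a and Supt16h.

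Across the 12 libraries log2 CPM of Chaf1a ran with that of Asf1a (Pearson r = 0.96), Npm2 (0.96), Atrx (0.93) and Asf1b (0.92), and against that of Hira (-0.96), Nap1l1 (-0.87) and Chaf1b (-0.79). These values are descriptive: the libraries fall into 2 stages, and the stage difference sets most of each r. The genes most like Chaf1a in this measure were Dnajc11 (0.9950), Zfp142 (0.9947) and Dpf3 (0.9946) of 15759 compared, of which 912 had an r over 0.95.

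The effect of the LINE1 ASO was asked at each stage. At early 2C, 0 of the 10 transcripts were called by edgeR and DESeq2 called 0, where edgeR called 50 of 13625 genes (0.367%). None of the 10 had an unadjusted p under 0.05, beside 8.84% of all genes. The groups overlapped for all 10, whereas 14.2% of all genes had groups that did not overlap. Chaf1a stood at 575, 601 and 696 CPM in early 2C LINE1 ASO, beside 626 to 688 CPM in RC, a log2 difference of -0.07 with a 95% interval of -0.26 to 0.13 (adjusted p = 0.919, edgeR). Atrx stood at 1035, 846 and 899 CPM, beside 789 to 976 CPM in RC, and Npm2 at 464, 557 and 663 CPM, beside 522 to 793 CPM. The interval of the log2 difference was -0.16 to 0.23 for Asf1a, -0.19 to 0.22 for Atrx, -0.27 to 0.08 for Nap1l1 and -0.22 to 0.20 for Supt16h. It was -0.31 to 0.21 for Asf1b, -0.31 to 0.30 for Hira and -0.37 to 0.23 for Daxx. The widest were those of Npm2, -0.53 to 0.14, and of Chaf1b, -0.85 to 0.15, the transcript with the fewest counts, at 7.43, 9.21 and 9.25 CPM in LINE1 ASO. For the 10 genes the median log2 difference was -0.06, against -0.01 over all genes.

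At 4C, 0 of the 10 were called, where 645 of 14231 genes (4.53%) were, 42.5% of them higher. With scaling by library totals 70.2% of the calls were higher, and in a fit of all 12 libraries 64.1%. Unadjusted p was under 0.05 for 3, Nap1l1, Daxx and Atrx, where 22.2% of all genes had such a p, and the groups did not overlap for these same 3, where 27.4% of all genes did not overlap. The median log2 difference was -0.37 over the 10, with 8 of 10 below 0, and 0.05 over all genes. DESeq2 called 1 of the 10, Nap1l1, where it called 1512 of the 14231 genes. Beside this, summed oocyte markers stood at 266 to 392 CPM in LINE1 ASO and at 196 to 262 CPM in RC. The 7 markers of 4C and later embryos summed to 217 to 368 CPM in LINE1 ASO and 549 to 759 CPM in RC. Neither pair of ranges overlapped. Pou5f1, Nanog, Tdgf1, Klf2 and Tfap2c were lower in 4C LINE1 ASO without overlap, and Cdx2 overlapped. Sox2 was higher there (1.11 to 2.93 against 0.141 to 0.966 CPM in 4C RC). In RC embryos Pou5f1 and Sox2 were higher at early 2C than at 4C (Pou5f1 260 to 364 against 114 to 198 CPM). The part of these LINE1 ASO shifts in the values below was not tested.

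Nap1l1, the H2A-H2B chaperone, was the nearest to a call. It stood at 925, 695 and 786 CPM in 4C LINE1 ASO replicates 1 to 3, all under the 1002 to 1439 CPM of RC. The log2 difference was -0.60 (SE 0.194; interval -1.02 to -0.18; adjusted p = 0.0902, edgeR). The adjusted p was 0.0413 with DESeq2, 0.0342 in a fit of all 12 libraries and 0.0411 without LINE1 ASO replicate 3, over a range of 0.027 to 0.338 in 14 alternatives. Daxx was higher, at 54.4, 61.2 and 53.8 CPM against 45.4, 31.1 and 33.9 CPM in RC, with a log2 difference of 0.55 (interval 0.09 to 1.02; adjusted p = 0.149, edgeR). Its partner Atrx was lower, at 462, 448 and 479 CPM against 511, 647 and 568 CPM in RC (-0.37, interval -0.73 to -0.02; adjusted p = 0.205, edgeR). For Daxx and Atrx no alternative gave an adjusted p under 0.05, the lowest being 0.0528 and 0.0731.

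For Chaf1a, Chaf1b and Supt16h the 4C LINE1 ASO libraries were split. Chaf1a stood at 99.8 and 112 CPM in replicates 1 and 2 and at 189 CPM in replicate 3, beside 138 to 188 CPM in RC. Chaf1b stood at 17.7, 18.2 and 30.4 CPM, beside 28.0 to 31.3 CPM in RC. Supt16h stood at 199, 187 and 303 CPM, beside 229.8 to 365 CPM in RC. In each, replicates 1 and 2 lay below all RC libraries and replicate 3 lay among or above them. With all 6 libraries the log2 differences were -0.36 for Chaf1a (interval -0.89 to 0.16; adjusted p = 0.41, edgeR), -0.46 for Chaf1b (interval -1.05 to 0.14; adjusted p = 0.357, edgeR) and -0.47 for Supt16h (interval -0.97 to 0.02; adjusted p = 0.244, edgeR). Without replicate 3 they were -0.78, -0.83 and -0.80, each past the threshold (adjusted p = 0.0102, 0.0463 and 0.0114, edgeR), and 4 of the 10 were then called lower, Nap1l1 being the other, where 9.38% of 14895 genes were called lower. That library was singled out with its values known, because it stood apart in Dux and in the chi-square over all genes. Its Pearson r with its fellows lay within the range of the 4C RC pairs. For 7 of the 10 genes it was the LINE1 ASO library nearest to the RC mean.

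**Figure D4:**
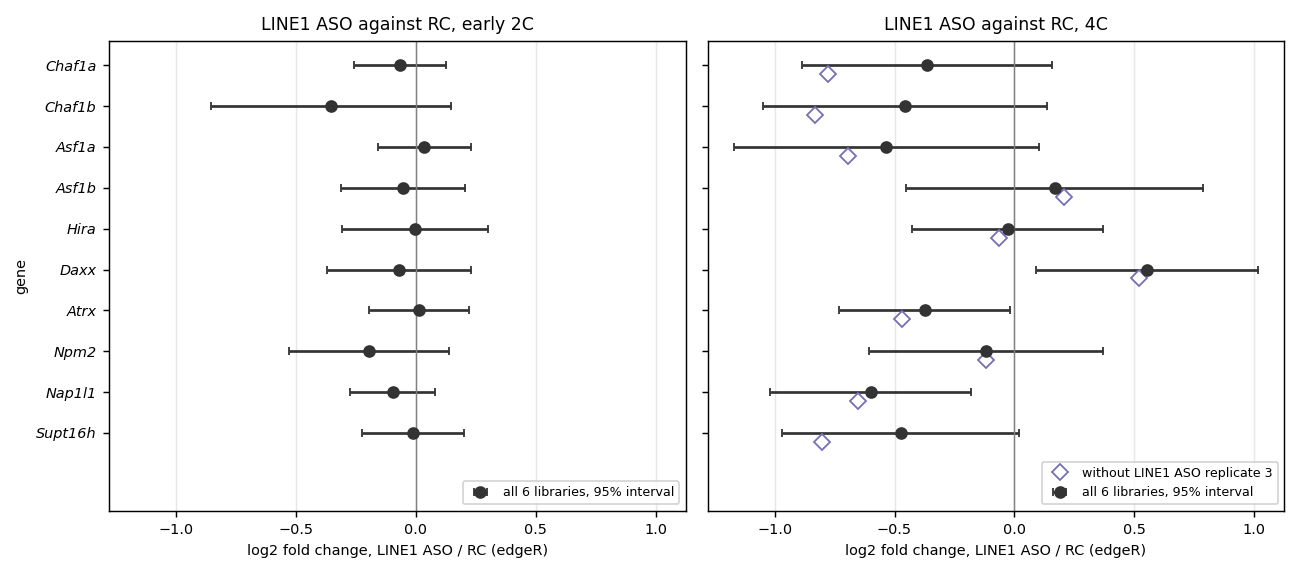
Log2 fold change of LINE1 ASO over RC for each transcript with its 95% interval at early 2C (left) and 4C (right); open diamonds give the 4C value without LINE1 ASO replicate 3. At early 2C all 10 intervals hold 0, and at 4C those of Nap1l1, Atrx and Daxx do not, before adjustment over all genes.

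For the remaining transcripts the groups overlapped at 4C. Asf1a stood at 16.6, 25.8 and 25.2 CPM in LINE1 ASO (log2 difference -0.53, interval -1.17 to 0.10; adjusted p = 0.311, edgeR) and Asf1b at 21.5, 37.2 and 23.2 CPM (0.17, interval -0.45 to 0.79). Hira stood at 195, 165 and 169 CPM (-0.03, interval -0.43 to 0.37) and Npm2 at 41.7, 47.9 and 38.9 CPM (-0.12, interval -0.61 to 0.37). Scaling by library totals turned the sign of Hira and of Npm2 and moved the median of all genes by 0.18. The Asf1b share of the pair was higher by 0.67 in the log2 ratio (exact permutation test, two-sided, p = 0.2), and the Chaf1b share differed by -0.09 (exact permutation test, two-sided, p = 0.5); with 3 against 3 libraries the smallest possible p is 0.1.

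Whether the ASO difference itself depended on stage was tested as an interaction over the 12 libraries. None of the 10 was called by edgeR or by DESeq2, where edgeR called 176 of 15760 genes (1.12%), and 1 of the 10 (Daxx) had an unadjusted p under 0.05, beside 17.5% of all genes. Of the 176 calls 58.0% were positive, against 80.9% with scaling by library totals and 42.3% with the size factors of DESeq2. The interaction was 0.68 for Daxx (interval 0.10 to 1.26; adjusted p = 0.214, edgeR), -0.51 for Asf1a (-1.15 to 0.13), -0.45 for Nap1l1 (-0.90 to 0.0067) and -0.42 for Supt16h (-1.02 to 0.18). The stage changes of Supt16h, called in LINE1 ASO and not in RC embryos, are therefore not shown to differ.

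Partners of these chaperones were read from 6 lists, of which that of the H2A-H2B chaperones also holds the H2A.Z exchange factors Ep400, Vps72 and Znhit1. Of 11 genes tied to replication-coupled H3-H4 deposition, 7 rose and 2 fell from early 2C to 4C in RC (median log2 change 0.51, against 0.09 for all genes), beside 36.1% of all genes called higher and 36.6% lower. The largest were the importin Ipo4, which carries H3-H4 into the nucleus (18.7 to 227 CPM, log2 3.60, SE 0.218), Cdan1, a partner of ASF1 (7.90 to 184 CPM, log2 4.54, SE 0.354), and Rbbp7, a homologue of Rbbp4, which fell from 1653 to 263 CPM (log2 -2.65, SE 0.134). With the LINE1 ASO 5 of these rose and 3 fell (median 0.13, against 0.24 for all genes), beside 37.6% and 34.2% of all genes. The same shares stand beside the counts of the other lists below, and with 72.7% and 71.8% of all genes called in either direction, calls in most members of a list are no mark of that list. Of 8 genes of H3.3 deposition, 2 rose and 3 fell in RC (median -0.28). The remodeller Chd1 rose from 54.9 to 654 CPM (log2 3.57, SE 0.177), Chd2 rose by 1.10 and the HIRA-interacting Hirip3 fell from 273 to 26.5 CPM (log2 -3.36, SE 0.181). The counts were again 2 and 3 with the LINE1 ASO (median -0.19).

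Of 7 FACT and elongation genes, 6 rose and 0 fell in RC and 4 rose and 0 fell in LINE1 ASO embryos (medians 0.85 and 0.83), where 36.1% and 37.6% of all genes were called higher and 36.6% and 34.2% lower. Supt5h rose by 2.36, Supt4h1 by 2.75 and the H3-H4 chaperone Supt6h by 0.94 in RC, whereas Ssrp1, the other FACT subunit, had a log2 change of -0.21 (adjusted p = 0.147, edgeR). Of 12 tested H2A-H2B chaperones and exchange factors, 5 rose and 4 fell in RC (median 0.41), and 6 and 4 in LINE1 ASO embryos (median 0.58). Set, which chaperones histones and inhibits protein phosphatase 2A, rose from 18.8 to 1512 CPM (log2 6.33, SE 0.182), Nap1l4 fell from 448 to 131 CPM and Ep400 from 1399 to 291 CPM. Set has many processed pseudogenes, and its level is uncertain. Among the centromere loading genes, Oip5 rose by 3.10 in RC. Of 10 histone variants and linker histones, 3 rose and 4 fell in RC (median -0.50), and 3 and 3 in LINE1 ASO embryos (median -0.22). H2afz rose from 7.03 to 168 CPM, H2afv from 6.61 to 41.6 CPM, and the oocyte linker histone H1foo fell from 436 to 13.2 CPM. The H3.3 genes H3f3a and H3f3b had log2 changes of 0.14 and 0.12 and were not called.

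**Figure D5:**
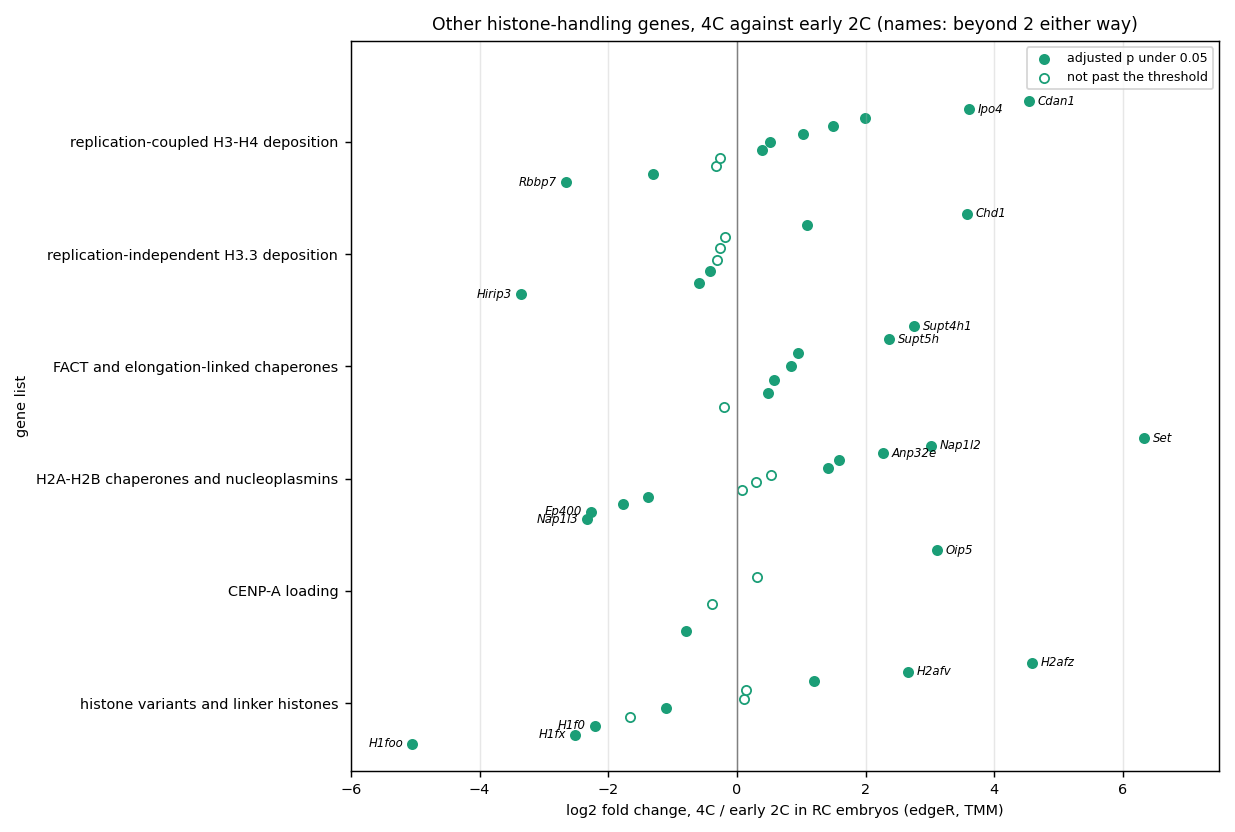
Log2 fold change of 4C over early 2C in RC embryos for each tested gene of the 6 lists (edgeR, TMM), filled where the adjusted p is under 0.05. Called increases and called decreases both occur in 5 of the 6 lists, and the FACT and elongation list has called genes above 0 alone.

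For the LINE1 ASO, calls among these partners stand beside 0.367% of all genes called at early 2C and 4.53% at 4C. The calls at 4C were 1 of 11 replication-coupled genes, 1 of 8 H3.3 deposition genes and 0 in the other lists. At early 2C Ubn1, a subunit of the HIRA complex, rose from 303, 270.1 and 305 CPM in RC to 399, 429.6 and 380.2 CPM (log2 0.45, SE 0.0898; adjusted p = 0.027, edgeR). It was the only call among 50 genes tested from the lists, and it was lost without RC replicate 1 or 3, without LINE1 ASO replicate 1 or 2, and in the fit of all 12 libraries. At 4C Mcm2, a replicative helicase subunit that also binds H3-H4, fell from 274, 183 and 236 CPM in RC to 83.0, 110.5 and 152 CPM (log2 -1.06, SE 0.239; adjusted p = 0.030, edgeR). Hirip3 rose at 4C from 23.8, 23.5 and 32.3 CPM to 62.5, 54.2 and 46.9 CPM (log2 0.98, SE 0.218; adjusted p = 0.0284, edgeR). The groups did not overlap for these 3 genes, but Mcm2 and Hirip3 each kept the call in 1 of the 6 fits without a library, that without LINE1 ASO replicate 3, with the sign the same in all 6. The medians of the 6 lists lay between -0.14 and 0.07 at early 2C and between -0.38 and 0.27 at 4C, beside -0.01 and 0.05 over all genes.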

How the data were processed

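RNA of mouse embryos was read by SMARTer stranded total RNA sequencing (single reads of 50 bases). The deposited tables, 1 for each stage, hold raw read counts per gene for 6 libraries each, and all 12 columns matched a label. Per the submitters' processing notes the authors used Trim Galore 0.4.0, TopHat2 2.0.9, R 3.3.0 and DESeq2 1.12.3 with mm9. Per the file headers counting was by featureCounts, with version, annotation and strand setting not stated.

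Counts were tested with edgeR 4.0.16 (R 4.3.3): filterByExpr, TMM, a robust quasi-likelihood fit and Benjamini-Hochberg adjustment over all genes tested, with 0.05 as the threshold. ASO effects used the 6 libraries of 1 stage, and stage effects and the interaction all 12. The script was tested on simulated data. Levels used TMM over 12 libraries, divided by exon length (GENCODE M21, GRCm38) where genes are compared. Ratios within pairs used exact permutation tests. Under the replicate block they used an exact test that flips the signs of differences between same-numbered libraries. The alternatives tried were DESeq2 1.42.0, edgeR with either the DESeq2 size factors or plain library totals, no filter or a stricter one (50 counts in 3 libraries), no robust estimation, 1 fit of 12 libraries, a replicate block, and leaving out each library. Promoter windows came from RefSeq by symbol (9 of 10 genes matched).

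The members, lists and motifs were chosen with earlier results of these data known. From each list at most 3 called genes with the smallest p are named, and genes like Chaf1a are the 3 with the highest Pearson r of log2 CPM (prior count 2). Rbbp4, Ssrp1, H3f3a, H3f3b, Dux and the genes that share exons with members were named after their values were seen. Every replicate pair differed beyond sampling noise (chi-square per degree of freedom 12.7 to 78.6). Srcap and Mis18a were not analysed here.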

Additional observations from a re-analysis of the deposited data

Results flagged for a closer look

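The interaction of stage and ASO was called for 1 of 8 H3.3 deposition genes and for 0 genes of the other lists. Over all 15760 genes tested 1.12% were called, and the median interaction was 0.19. Hirip3, whose product binds HIRA, had a log2 difference between LINE1 ASO and RC at 4C that exceeded that at early 2C by 1.24 (interaction, SE 0.234; adjusted p = 0.0330, edgeR). At early 2C it stood at 293, 259.7 and 267 CPM in RC and at 209, 230.3 and 273 CPM in LINE1 ASO, so the groups overlapped. At 4C all LINE1 ASO libraries (46.9 to 62.5 CPM) lay above all RC libraries (23.5 to 32.3 CPM). The sign held in all 19 alternatives and the call in 9, with adjusted p of Hirip3 up to 0.104. Among the 12 fits without a library it was called without 4C RC replicate 2, 4C RC replicate 3 or 4C LINE1 ASO replicate 3, and it was not called with the replicate block (1.25; adjusted p = 0.0703, edgeR).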

How the results depend on the processing

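Of 750 values of the 10 chaperone genes under an alternative, 740 kept their side of the threshold, 9 were newly called and 1 lost its call. At 4C the count of the 10 chaperone genes called for the ASO was 0, and it was 1 with DESeq2, with the replicate block and in 1 fit of all 12 libraries. It ranged from 0 to 4 when a library was left out, 4 being the value without LINE1 ASO replicate 3. The sign of Hira in that comparison was kept in 10 of 14 alternatives, that of Asf1b in 12 and that of Npm2 in 13.

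Counts over all genes moved more. For the ASO at early 2C the 50 calls became 170 with DESeq2, 207 with no low-count filter, 80 with the replicate block and 2 in 1 fit of all 12 libraries, and ranged from 5 to 110 when a library was left out. At 4C the 645 calls became 1512 with DESeq2, 1108 with no low-count filter, 1504 with the replicate block and 1714 in the fit of all 12 libraries, with a range of 4 (without RC replicate 1) to 2126 (without LINE1 ASO replicate 3). For all genes the interaction's 176 calls became 906 with DESeq2, 277 with library totals and 12 with the replicate block, with a range of 19 to 1297. The cause was not tested. Pooled over both arms, the stage difference of the Asf1b share was 0.49 with the replicate block, paired by number (exact sign-flip test, p = 0.0938). It was 0.37 to 0.61 when a library was left out.

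Deviations of same-numbered libraries from their group means had correlations of -0.03 to 0.10. The labels do not say whether the numbers pair libraries, and correlations this small cannot decide it. As a hint from the data, each library correlated best with its own number in 0 of 6 (early 2C), 4 of 6 (4C), 4 of 6 (RC stages) and 6 of 6 (LINE1 ASO stages) cases. With 3 libraries a group and 202 to 347 counts of Chaf1b in early 2C, its ASO difference there is the least precise of the 10.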
